A study of Mus musculus with 7 samples.

Results

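HDAC1 peaks were described at 10 genes of the Wnt pathway, 3 ligands (Wnt3, Wnt5a, Wnt11), 4 effectors that carry the signal into transcription (Ctnnb1, Lef1, Tcf7, Tcf7l2), and 3 target and feedback genes (Axin2, Dkk1, Sp5). A peak was counted for a gene when it overlapped, by at least 1 bp, the gene body with 20 kb added on each side. The genes were listed by name and role, and no peak value entered the rule. They were chosen with earlier results of these data known, so their counts are not those of a blind choice. Of the 15347 peaks in the list, 37 fell in these windows, and 9 of the 10 genes had at least 1. The same window held a peak for 59.2% of the 21851 protein-coding genes (12943 genes).

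Histone deacetylase 1 (HDAC1) removes acetyl groups from histones, and chromatin immunoprecipitation with sequencing (ChIP-seq) recovers the DNA to which it is bound, directly or through partner proteins. All samples came from wild-type Swiss Webster mouse embryos at E11.5, with 40 to 44 somites, and carried no transgene, mutant allele or treatment. Forelimb and hindlimb buds of 3 litters were combined for a sample, with 4 HDAC1 ChIP samples and 3 input samples of chromatin that saw no antibody. A single list of peaks, ordered by rank, was made from all of them, so that no value below belongs to 1 sample, none has a replicate error, and no test between genes or groups was made. The coordinates come with no read number for a peak, so the depth behind each is unknown. The order runs from position 1 to position 15347, and the column that set this order is not named in the sources used here. The paper describes a supplementary version of the list with a fold change and a false discovery rate for each peak, which was not used here. Ectoderm and mesenchyme of both limb types were mixed, so a peak does not tell in which cells HDAC1 was bound, and the list has no expression value with which to check the tissue against marker genes.

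Wnt ligands are secreted, lipid-modified proteins. In the canonical branch they bind Frizzled receptors and LRP co-receptors, which stops the destruction complex built on Axin from degrading beta-catenin. Beta-catenin then enters the nucleus and binds the TCF/LEF factors, which sit at their DNA sites in its absence with Groucho/TLE co-repressors, proteins known to recruit histone deacetylases. In the limb bud, canonical signalling in the ectoderm is required for the apical ectodermal ridge, and Wnt5a acts in the distal mesenchyme, mainly through the branch that does not use beta-catenin.

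The promoters of the target genes are shown first because their relation to the peaks differed most. Each sequence is the 250 bases before the annotated start site, on the strand of the gene, from the RefSeq GRCm38.p6 (mm10) genome, with start sites from GENCODE M21. Capitals mark exact copies of the TCF/LEF heptamer, searched as CTTTGAA or CTTTGAT on both strands, which cannot both match at the same bases. The stretch before the first Axin2 start (chr11:108920099-108920348, plus strand) was covered by a peak over 249 of its 250 bases. The Sp5 promoter (chr2:70474673-70474922, plus strand) had no base inside a peak although peaks stood on both sides of it. The Dkk1 promoter (chr19:30549666-30549915, minus strand) had no peak near it.
Axin2: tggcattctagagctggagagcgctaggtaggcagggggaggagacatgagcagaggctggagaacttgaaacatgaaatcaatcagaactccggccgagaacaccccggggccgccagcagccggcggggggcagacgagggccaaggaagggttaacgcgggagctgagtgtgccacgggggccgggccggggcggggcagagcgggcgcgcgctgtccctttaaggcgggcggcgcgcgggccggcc
Sp5: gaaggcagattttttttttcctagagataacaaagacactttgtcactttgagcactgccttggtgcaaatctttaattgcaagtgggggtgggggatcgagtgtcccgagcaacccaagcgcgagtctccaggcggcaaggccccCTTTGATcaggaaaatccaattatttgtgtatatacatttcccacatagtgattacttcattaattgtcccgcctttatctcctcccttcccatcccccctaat
Dkk1: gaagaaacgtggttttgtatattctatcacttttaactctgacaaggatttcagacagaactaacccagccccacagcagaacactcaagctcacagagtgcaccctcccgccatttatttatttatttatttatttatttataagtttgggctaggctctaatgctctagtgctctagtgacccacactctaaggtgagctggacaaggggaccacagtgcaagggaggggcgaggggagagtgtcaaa
The Sp5 promoter held 1 heptamer, which began 104 bases before the start site, and the other stretches of this trio held none. Axin2 has a second coding start, and the 250 bases before that one (chr11:108922931-108923180) held 2 heptamers. Peaks covered 200 of these bases, and the heptamer that began 209 bases before the start lay in a gap between peaks. Over 41438 start sites of protein-coding transcripts, 6.70% of such 250-base stretches held a heptamer. These letters describe the stretch and do not show that a factor bound there. The GC content was 69.2% at Axin2, 46.0% at Sp5 and 44.8% at Dkk1.

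**Figure D1:**
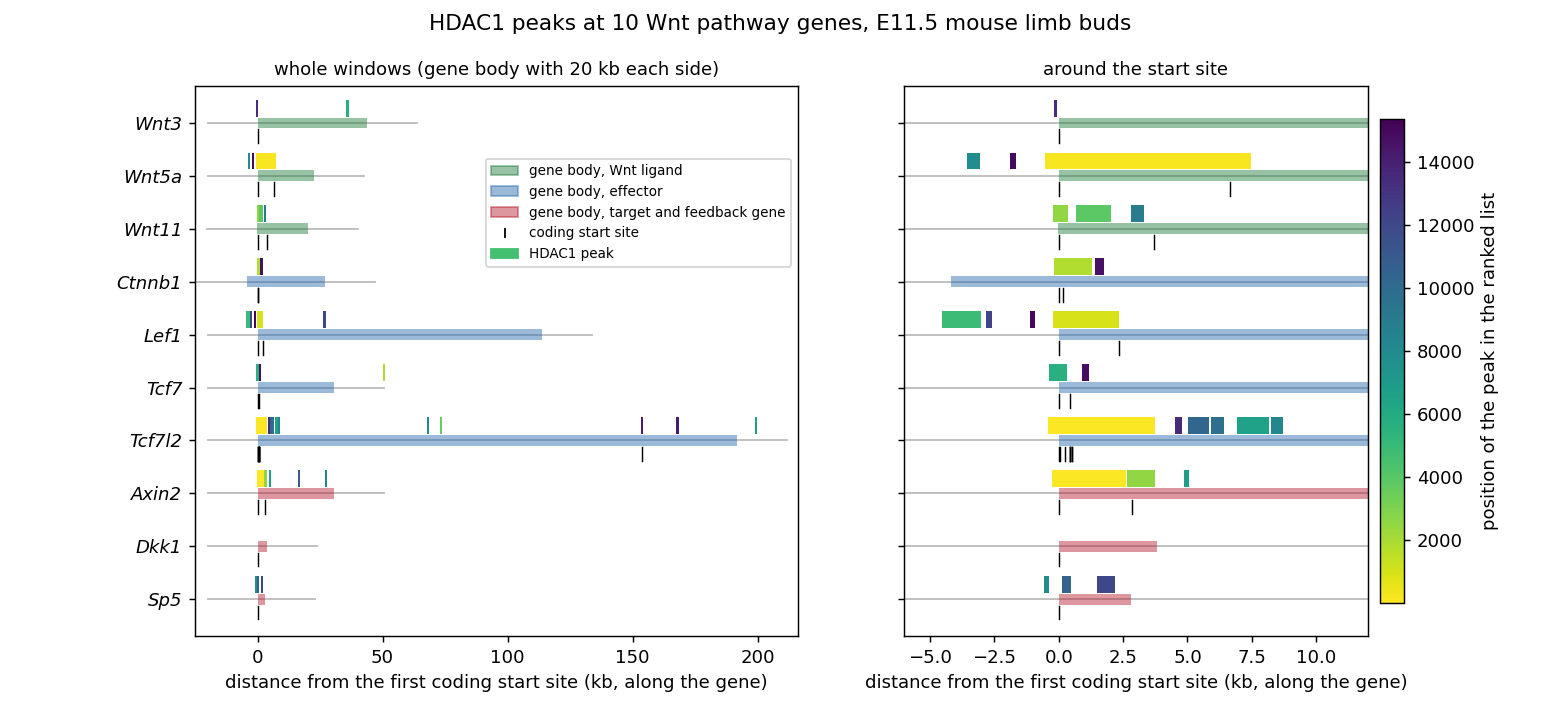
Each row is a gene drawn 5′ to 3′, with distance from its first coding start site in kb on the x axis, the gene body as a coloured bar, the window as a thin line, coding start sites as ticks below and HDAC1 peaks above, coloured by list position. Of the 37 peaks, 17 lay at a start site of the gene (right panel) and 19 were distal, among them peaks inside Wnt3, Lef1, Tcf7l2 and Axin2 (left panel) and none at Dkk1.

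The ligand genes had 8 peaks, and 6 of them lay at a start site of the gene itself, meaning that they reached into the stretch from 2 kb before to 1 kb after a protein-coding start. Wnt5a (chr14:28504750-28527448, plus strand), a ligand of distal outgrowth, had the longest peak of all 37. It ran for 8000 bp from 28504200 to 28512199, stood at position 136 of the list, and covered both coding start sites of the gene. Only 8 peaks of the list, this one included, were at least as long. Within it, 5932 bp were intron, 140 bp coding sequence, 1378 bp other exon and 550 bp lay upstream of the gene. A pair of shorter peaks stood upstream, 1 of 500 bp (28501200 to 28501699, position 7833) and 1 of 250 bp (28502850 to 28503099, position 14986). Together the peaks covered 8750 bp, or 13.96% of the Wnt5a window, a share that 0.352% of all genes reached.

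Wnt11 (chr7:98835112-98855195, plus strand), which acts in planar polarity and cell movement, had 3 peaks, all at its start sites. The peak over the first coding start was 600 bp long (98834900 to 98835499, position 2565). The next was 1350 bp long (98835800 to 98837149, position 3895) and the last 500 bp long (98837950 to 98838449, position 9001), and both lay inside the gene. The second coding start of Wnt11, at 98838845, was not covered, with the nearest peak 396 bp away. The 3 peaks lay close enough to join into 1 domain of 3550 bp when gaps of up to 1000 bp were closed.

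Wnt3 (chr11:103774150-103817957, plus strand), the ectodermal ligand needed for the ridge, had much less. A peak of 150 bp (103773950 to 103774099, position 13370) ended 51 bp before its start site, and 99.9% of the peaks in the list were at least as long. Its other peak was 250 bp long and lay in an intron 35900 bp from the start (103810050 to 103810299, position 5740). The Wnt3 peaks covered 400 bp, 0.477% of the window, next to a median of 0.473% over all genes. The intronic peak ranked ahead of the one at the promoter, and its 300 central bases had the highest GC content of the 37 windows, 81.0%, with a CpG ratio (observed over expected) of 0.956. It is shown for that composition (chr11:103810025-103810324, plus strand, no annotated exon).
Wnt3 intron: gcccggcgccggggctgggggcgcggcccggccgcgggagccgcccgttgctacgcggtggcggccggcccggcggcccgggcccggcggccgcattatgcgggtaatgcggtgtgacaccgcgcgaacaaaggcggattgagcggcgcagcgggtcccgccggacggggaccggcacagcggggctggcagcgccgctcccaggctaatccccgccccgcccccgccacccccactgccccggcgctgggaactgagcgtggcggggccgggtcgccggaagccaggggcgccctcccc
All peaks away from start sites had a median GC content of 52.33% and a median CpG ratio of 0.373, and all peaks at start sites 67.67% and 0.842. The Wnt3 intron was above both medians, although no protein-coding start lies within the distance used here. Of all distal peaks, 18 (0.392%), this one included, had a GC content at least as high.

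The effectors had 21 peaks, 11 of them at Tcf7l2. Tcf7l2 (chr19:55741820-55933654, plus strand) encodes the TCF factor TCF4. Its first peak was 4150 bp long (55741400 to 55745549), stood at position 119 and covered 8 of its 9 coding start sites. The next 5 peaks, of 250 to 1250 bp at positions 6499 to 13496, followed in intron sequence, and with gaps of up to 1000 bp closed the 6 made 1 domain of 9150 bp (55741400 to 55750549). The ninth start site, at 55895510, lay in a peak of 200 bp at position 14106. Of the 9 distal peaks of Tcf7l2, 8 were intronic and 1 lay past the 3′ end of the gene. The best ranked of these 9 was an intronic peak of 700 bp, 72608 bp from the nearest start of the gene (55814950 to 55815649, position 3507). Its 300 central bases are shown as the leading distal site of the set (chr19:55815150-55815449, plus strand, no heptamer).
Tcf7l2 intron: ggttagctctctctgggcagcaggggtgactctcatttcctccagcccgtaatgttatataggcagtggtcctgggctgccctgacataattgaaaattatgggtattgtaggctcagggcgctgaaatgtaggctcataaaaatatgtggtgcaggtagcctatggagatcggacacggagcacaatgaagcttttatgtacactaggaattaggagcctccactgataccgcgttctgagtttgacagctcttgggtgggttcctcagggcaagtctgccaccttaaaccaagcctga
At least as many peaks as at Tcf7l2 were found in the windows of 54 genes, Tcf7l2 included, or 0.247%. Its window of 231.8 kb was the longest of the 10, and per 100 kb it held 4.74 peaks, close to Wnt5a (4.78) and Wnt11 (4.99).

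Lef1 (chr3:131110471-131224356, plus strand), the TCF/LEF family member named for its role in lymphoid cells, had 5 peaks. The longest, 2550 bp at position 901 (131110250 to 131112799), covered both coding start sites. Upstream of it stood a peak of 200 bp at position 14993, one of 250 bp at position 12106 and one of 1500 bp at position 4877 (131105950 to 131107449). The remaining peak was 200 bp long and lay 24403 bp inside the gene from the nearest start (131137200 to 131137399, position 12071). This short intronic peak is shown because it held a pair of heptamers, on opposite strands and 3 bases apart, and no other 300-base window of the set held more than 1 (chr3:131137150-131137449, plus strand, overlapping an exon of the annotated transcript Gm42449).
Lef1 intron: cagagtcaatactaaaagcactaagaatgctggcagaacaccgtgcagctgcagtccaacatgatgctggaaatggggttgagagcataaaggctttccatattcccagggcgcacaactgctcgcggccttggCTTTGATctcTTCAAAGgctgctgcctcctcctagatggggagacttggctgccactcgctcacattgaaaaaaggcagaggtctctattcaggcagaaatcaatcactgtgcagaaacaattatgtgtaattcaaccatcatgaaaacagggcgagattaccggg
At least as many peaks as at Lef1 were found for 3.83% of genes.

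Ctnnb1 (chr9:120929216-120960507, plus strand) encodes beta-catenin. A peak of 1500 bp at position 1835 covered both of its coding start sites (120933200 to 120934699), and a peak of 350 bp at position 14688 followed 100 bp downstream of it (120934800 to 120935149). The second peak counted as distal because it began 1228 bp after the nearest coding start. The next peak in either direction was 237367 bp away from the gene.

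Tcf7 (chr11:52252371-52283014, minus strand), which encodes TCF1, had 3 peaks in its window but only 2 of its own. The peak over its first coding start was 700 bp long at position 5635 (52282700 to 52283399), and a peak of 250 bp at position 14810 lay in the gene (52281850 to 52282099). The second coding start, at 52282571, lay 129 bp from the nearest peak. The best ranked peak in the window, of 1000 bp at position 1802, stood at the start site of the neighbouring gene Skp1a, a subunit of SCF ubiquitin ligases, and crossed the edge of the window (52231900 to 52232899). Without that peak, the best position among the 4 effectors ran from 119 at Tcf7l2 through 901 at Lef1 and 1835 at Ctnnb1 to 5635 at Tcf7.

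The 8 peaks of the target and feedback genes fell on Axin2 and Sp5. Axin2 (chr11:108920349-108950783, plus strand), a scaffold of the destruction complex and a widely used readout of beta-catenin signalling, had the best ranked peak of the set, at position 61. It was 2850 bp long (108920100 to 108922949) and covered the first coding start, mostly over intron sequence (2388 bp). A second peak of 1100 bp at position 2566 began after a gap of 50 bp (108923000 to 108924099), covered the other coding start, and included 812 bp of coding sequence. The other 3 peaks were intronic, of 200 bp at position 6859, 250 bp at position 10955 and 450 bp at position 8614. In all, 4850 bp or 6.89% of the Axin2 window lay in peaks, a share that 2.44% of genes reached.

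Sp5 (chr2:70474923-70477729, plus strand), a zinc finger transcription factor induced by beta-catenin, had 3 short peaks low in the list. One of 200 bp stood 374 bp upstream of the start site (70474350 to 70474549, position 8016), and one of 350 bp began 127 bp downstream of it (70475050 to 70475399, position 10475). The remaining peak, of 700 bp at position 12079, lay entirely in coding sequence (70476400 to 70477099) and counted as distal at 1477 bp from the start. The start site itself and the 250 bases printed above were thus flanked by peaks and not covered. Sp5 and Axin2 had the most peaks per 100 kb of window, 7.01 and 7.10, but Sp5 had no peak ahead of position 8016.

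Dkk1 (chr19:30545863-30549665, minus strand), a secreted antagonist that blocks the LRP co-receptors, had no peak. The nearest was a 200 bp peak 370764 bp away (30174900 to 30175099, position 11827), which stood 430 bp from the start site of Gldc. On the other side the nearest peak was 780885 bp away. Within 500 kb of Dkk1 there was thus 1 peak, next to a median of 9 per gene, and 12.1% of genes had 1 or none. The short window of Dkk1 is part of the setting. When all genes were split into 4 equal classes by window length, Dkk1 and Sp5 fell in the shortest class, where 42.9% of genes had a peak. The next to longest class, with 6 of the other members, had 64.1%, and the longest, with Lef1 and Tcf7l2, 73.3%.

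**Figure D2:**
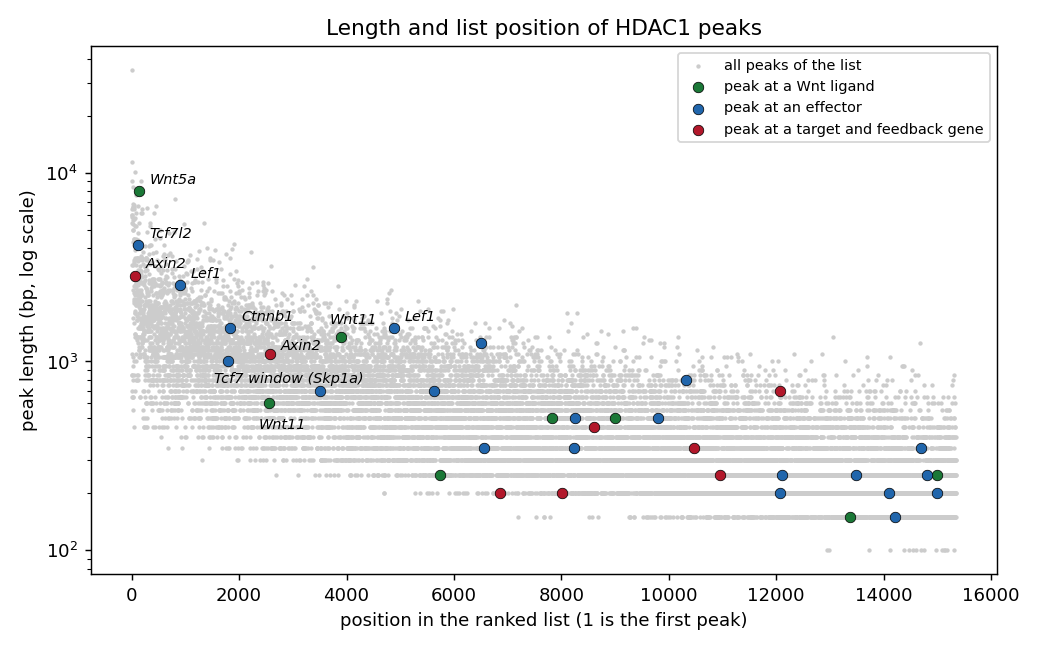
Peak length in bp (y axis, log scale) is plotted against position in the ranked list (x axis) for all peaks (grey) and for the 37 peaks at ligands, effectors and target and feedback genes (coloured points). Peaks at Axin2 (position 61), Tcf7l2 (119), Wnt5a (136) and Lef1 (901) stood early in the list, and 21 of the 37 lay past position 7673.

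Flanks of 5 kb in place of 20 kb removed few peaks. Without flanks 28 peaks remained, and with 50 kb there were 43. For the ligands these counts were 5 and 11, next to 8 with 20 kb. Of the 37, only the Skp1a peak counted for Tcf7 and the peak past the 3′ end of Tcf7l2 lay between 5 and 20 kb outside the gene body. Just outside the window, the nearest peak to Wnt3 was 24201 bp from the gene, at the start of its neighbour Wnt9b (position 8711). The nearest one outside the Wnt5a window was 34001 bp from the gene (28470050 to 28470749) and ranked high, at position 794. For the other members the nearest outside peak was at least 47044 bp away, the distance between Lef1 and a peak at the start of Hadh.

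Peak numbers were set against window length for the 3 roles. Ligands had 3.87 peaks per 100 kb of window, effectors 3.98, and targets and feedback genes 5.09. All gene windows together held 1.41, and the median gene 1.06. Effectors without Tcf7l2 had 3.38, and targets without Dkk1 had 7.06. Peaks covered 5.61% of the ligand windows, of which the single long Wnt5a peak made most, 3.27% of the effector windows and 3.88% of the target windows. Among the first 7673 peaks of the list, ligands had 4 of their 8 peaks, effectors 9 of 21 and targets 3 of 8. Merging peaks up to 1000 bp apart left 6, 12 and 5. The windows added up to 206.6 kb for ligands, 527.7 kb for effectors and 157.0 kb for targets. Over these lengths the targets still had the highest density after merging. Among the first 7673 peaks they were not ahead of the ligands. The densities printed above are for the full list with each peak counted singly. Lef1 and Tcf7, known as targets too, were counted as effectors. With 3 or 4 genes in a role and 1 list, the differences between roles were not tested.

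**Figure D3:**
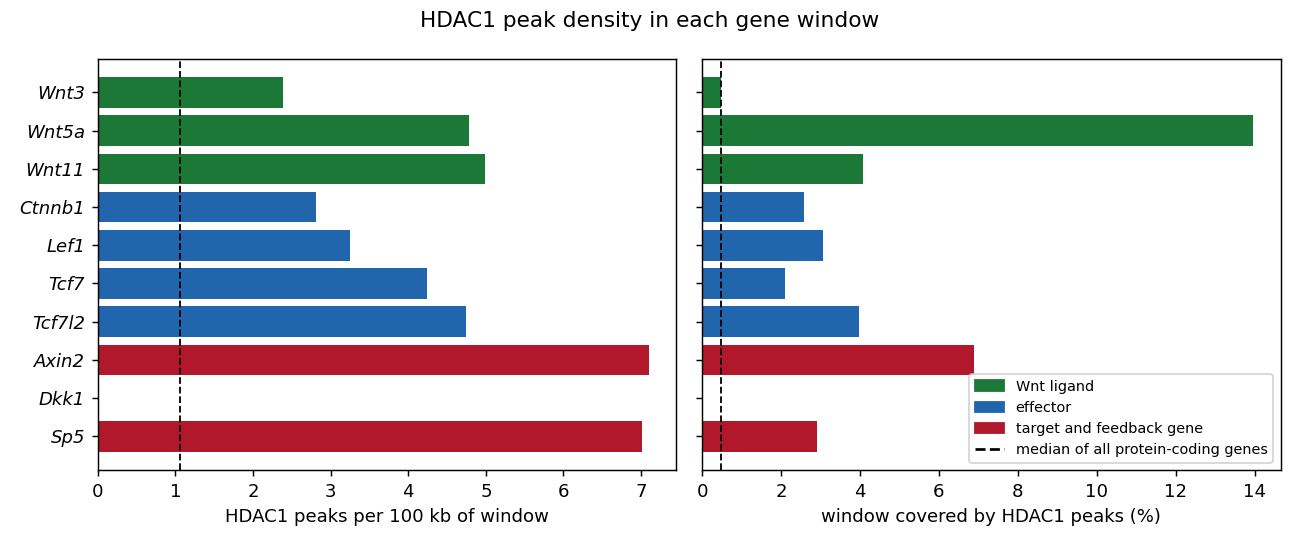
Bars give HDAC1 peaks per 100 kb of window (left) and the share of the window covered by peaks in % (right) for each gene, with the median of all protein-coding genes as a dashed line. Axin2 and Sp5 had the most peaks per 100 kb (7.10 and 7.01), and Wnt5a the largest covered share (13.96%). The Sp5 peaks joined into 1 domain when gaps of up to 1000 bp were closed.

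Start sites accounted for 75.0% of ligand peaks (6 of 8), 33.3% of effector peaks (7 of 21) and 4 of 8 target peaks. Without Tcf7l2, 5 of the 10 remaining effector peaks lay at own start sites, the same share as for the targets. Over the 37 peaks, 17 lay at a start site of the member, 1 at another gene's start and 19 were distal, which is 51.4% next to 29.9% of all peaks in the list. Of the 19, 9 belonged to Tcf7l2. By gene, 9 of the 10 had a peak at a start site, next to 44.1% of all genes, and 7 had a distal peak, next to 14.3%. Among genes with the longest windows, which include Lef1 and Tcf7l2, 21.8% had a distal peak. When distal meant more than 5 kb from any coding start, Wnt3, Lef1, Tcf7l2 and Axin2 remained, next to 8.32% of all genes.

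Peaks at the members' start sites were longer and ranked earlier than their distal peaks, as in the list as a whole. The medians were 600 bp and position 5635 at start sites, and 350 bp and position 8614 at distal sites. Over the whole list they were 550 bp and position 6369, and 300 bp and position 10285.5. Of the 24 coding start sites of these genes, all but 5 lay inside a peak, and the 5 were those of Dkk1, Sp5 and Wnt3 and 1 of the starts of Tcf7 and Wnt11. Tcf7l2 alone had 9 of the 24, and all of them except the last lay close together under its first peak. The share over all coding start sites was not computed. The best positions were 136 among ligand peaks, 119 among effector peaks and 61 among target peaks, and the median positions were 6786.5, 8259 and 8315.

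**Figure D4:**
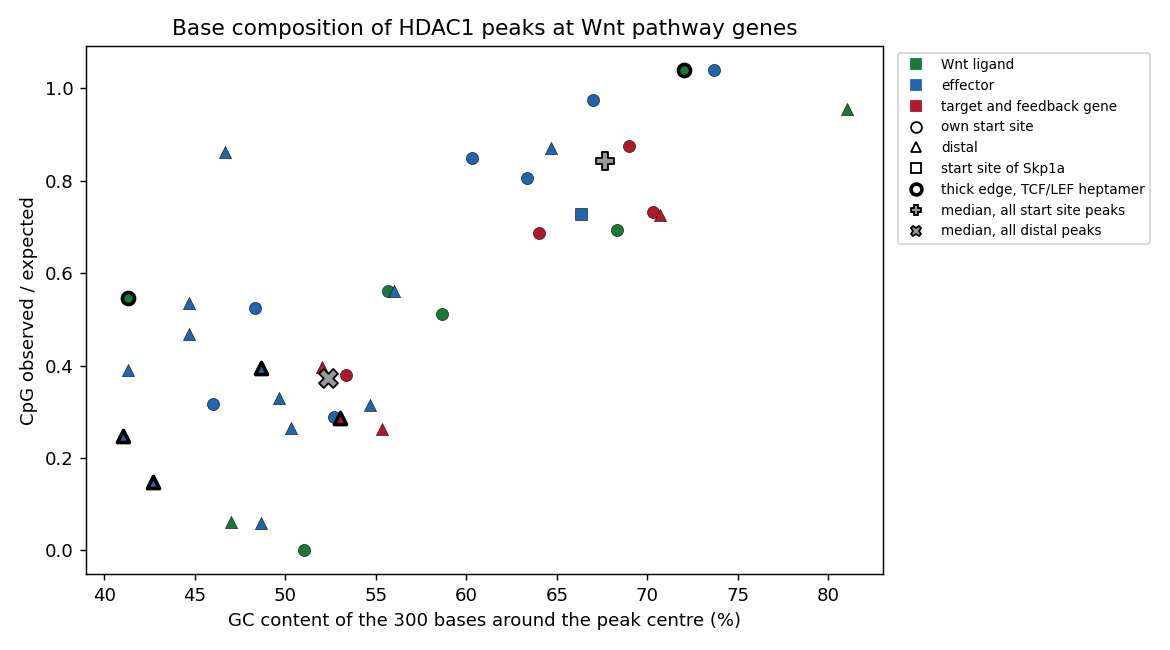
GC content in % (x axis) and CpG observed over expected (y axis) are plotted for the 300 bases around the centre of each of the 37 peaks, coloured by role and shaped by place, with thick edges for windows holding a TCF/LEF heptamer. Start site peaks had a median GC content of 60.33% and distal peaks 49.67%, with the Wnt3 intron peak as a distal point at 81.0%.

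TCF/LEF heptamers were counted in the peaks because these factors can bring beta-catenin or co-repressors to DNA. In the 300 bases around the peak centre, 6 of the 37 peaks (16.2%) held at least 1, next to 5.29% of all peaks. The 6 were at Wnt5a, Wnt11, Lef1, Axin2 and, with 2 peaks, Tcf7l2. The share was 3.21% over all start site peaks and 10.2% over all distal peaks, and 4 of the 6 were distal. The windows of the 37 peaks also had a lower median GC content, 53.33% next to 64.33% over all peaks. The heptamer shares were not adjusted for this. Over whole peaks, 14 of the 37 (37.8%) held a heptamer, next to 10.4% of all whole peaks, and they lay at all members with a peak except Wnt3 and Sp5. The heptamers made up 0.650 heptamers per kb of peak, next to 0.186 over the list, 0.150 in start site peaks and 0.333 in distal peaks. By role it was 0.431 for ligands, 0.622 for effectors and 1.148 for targets. All 7 heptamers of the targets lay at Axin2, so the target value is that of 1 gene. Lef1 and Tcf7 are known targets too and were counted once, as effectors. Whether any of these matches was bound by a TCF/LEF factor was not measured.

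Of the members, Axin2 held the most for the summed length of its peaks, 1.443 per kb. Some short single peaks held more for their length, such as the 200 bp intronic peak of Lef1 with 2. Its first peak contained 5 heptamers in 2850 bp, or 1.754 per kb. In the list, 3 peaks had 5 or more, and the others were 35050 bp (at Hoxa10) and 6500 bp (at Mab21l1) long. Without Axin2 the peaks of the members held 0.524 per kb. The 7 Axin2 sites are shown with 10 bases on each side, plus strand, in order from the promoter (chr11:108920417-108920443, chr11:108920780-108920806, chr11:108921222-108921248, chr11:108921242-108921268, chr11:108922406-108922432, chr11:108923062-108923088 and chr11:108947631-108947657). The first 5 are from the peak at position 61, the next from the peak at position 2566 and the last from the most 3′ intronic peak, and the first lies in an annotated exon of Axin2 that starts at its first start site.
Axin2 site 1: gccggctgcgCTTTGATaaggtcctgg
Axin2 site 2: cggctcgcgcCTTTGAAgtgcacagtt
Axin2 site 3: ggccggcgcgCTTTGATgtgcggggcg
Axin2 site 4: cggggcggcgCTTTGAAgttggcaggc
Axin2 site 5: aagtttgaagATCAAAGcctctaagtt
Axin2 site 6: tactttcttgCTTTGATgttgggtaga
Axin2 site 7: ataagcctggCTTTGAAgctctggcct
Of these, 6 had the heptamer read as CTTTGAA or CTTTGAT on the plus strand, and site 5 had it on the minus strand. The first bases of the heptamers of sites 3 and 4 lay 20 bp apart. For comparison, the site nearest to a start among the ligands lay 70 bases before the first coding start of Wnt11 (chr7:98835051-98835077, plus strand), inside its peak at position 2565, and Wnt5a held 3 over its 8000 bp, of which 1 (chr14:28506151-28506177, plus strand) is shown.
Wnt11 site: acgtgggcggATCAAAGcgacggtccg
Wnt5a site: tcccccccttTTCAAAGttaactgaac
At Wnt5a the density was 0.343 per kb, at Wnt11 0.816, and at Tcf7l2, where 6 heptamers lay in 4 peaks, 0.652.

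The rest of the pathway was described over a list of 92 genes in 9 roles, the 10 members included. In this list 81 genes had a peak in the window, 71 (77.2%) one at a start site and 40 (43.5%) a distal one, where the shares over all genes were 59.2%, 44.1% and 14.3%. Without the 10 members the counts were 72, 62 and 33 of 82 genes. The best ranked peak of the whole list stood in the window of Dvl1, a Dishevelled protein that relays the signal from Frizzled, at position 12, but not at its own start, where the best peak had position 11298.

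Among the 19 Wnt ligands, 18 had a peak and 14 one at a start site, with Wnt8a the gene without. Some ligand genes lie side by side and share a peak, and a peak in a window can lie at the start of another gene. Wnt5a ranked first of the ligands both by position and by covered bases. Receptors and co-receptors had a start site peak in 16 of 18 genes, led by the Frizzled gene Fzd2 (position 17, 5850 bp covered), with none at Fzd6 or Lgr6. All 10 genes of cytoplasmic transduction and the destruction complex had a peak, with the most bases covered around the kinase gene Gsk3a (5550 bp), whose best peak at its own start had position 11356. All 9 nuclear effectors and co-factors had one at a start site, and Tcf7l2 led them by position and by covered bases. All 4 Groucho/TLE genes had a peak, with Tle3 first at position 232 and with 5750 bp covered.

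Secreted antagonists were the role to which Dkk1 belongs, and 9 of their 13 genes had a peak (69.2%, next to 59.2% of all genes). Dkk1, Dkk3, Dkk4 and Wif1 had none, so 4 of the 11 genes of the list without a peak were secreted antagonists. The best position in this role was 2007, at the Wnt deacylase gene Notum, and the most bases were covered at the Frizzled-related antagonist gene Frzb (3550 bp). Of 7 membrane and intracellular feedback inhibitors, 6 had a peak and Rnf43 had none. The best position was 502 in the window of Kremen2, not at its own start site, and the most bases were covered at Nkd2 (2100 bp). Of 6 transcription factor genes known as targets, where Sp5 belongs, 5 had a peak and 3 one at a start site. The best position was 3681 at T, the most bases were covered at Msx2 (5000 bp), and Cdx2 had no peak. Of the 6 genes of Wnt secretion and R-spondins, 4 had a peak (66.7%, next to 59.2% of all genes). Rspo2 led them (position 579, 1300 bp covered), and Porcn and Wls had none.

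**Figure D5:**
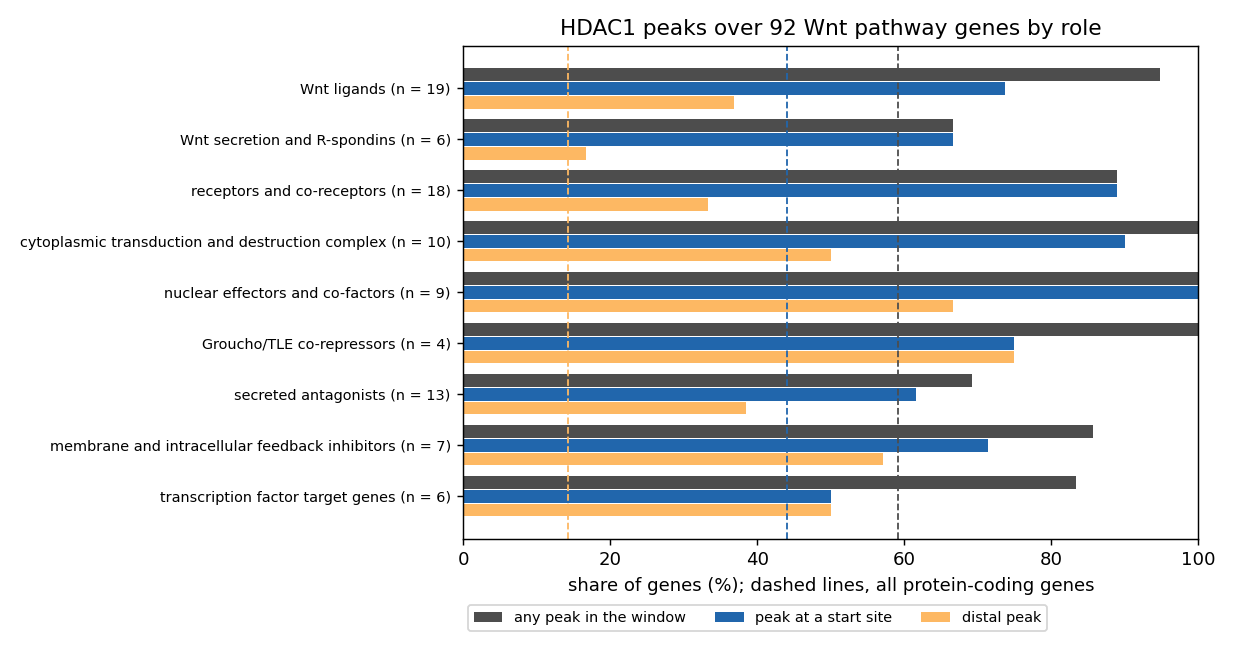
Bars give the share of genes in % with any HDAC1 peak in the window, with a peak at a start site and with a distal peak, for each of 9 roles of the 92 pathway genes, and dashed lines the same shares over all protein-coding genes (59.2%, 44.1% and 14.3%). The share with any peak ran from 66.7% for secretion and R-spondins to 100.0% for transduction, nuclear effectors and Groucho/TLE.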

How the data were processed

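HDAC1 ChIP-seq was performed on 4 samples of pooled E11.5 mouse limb buds, with 3 inputs. Per the paper's methods, CisGenome was used for peak calling with a cutoff of 0.05 on the false discovery rate. What the authors deposited is 1 list of peak coordinates (mm10) in rank order, and its columns hold no count, signal or other score. Scores of single peaks that the paper describes in its supplement were not used here. The submitters' processing notes name Bowtie2 2.2.5. Every column of the list was used. The number of reads behind a peak is unknown, so binding too weak to pass the cutoff is not seen.

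Both ends of a peak were taken as part of it, counted from 1, and peaks were intersected with GENCODE M21 basic genes on GRCm38. Start site peaks overlapped the stretch from 2 kb before to 1 kb after a protein-coding start site, and the other peaks in a window were distal. The 10 members and the list of 92 pathway genes were chosen with earlier results of these data known. Besides all members, the text names for each pathway role the genes with the best ranked peak and with the most covered bases, the genes without a peak where they were 5 or fewer, and genes whose start site a member's peak occupies. The peaks with most heptamers, and the nearest genes to peaks outside a window, were named after their values were seen. Sequences were read from the RefSeq genome. Alternatives were windows of 0, 5 and 50 kb, the first 7673 peaks, the peak centre, merging of peaks up to 1000 bp apart, other start sites and whole peaks in the heptamer search. The overlap, merging and start window code was tested on simulated intervals, and the heptamer search was not part of that test. Python 3.11.15, pandas 2.3.3, numpy 2.4.6, pysam 0.24.0, samtools 1.23.1 and matplotlib 3.10.9 were used.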

Additional observations from a re-analysis of the deposited data

How the results depend on the processing

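Of 53 values recomputed under an alternative, 20 moved, which for a count meant by more than 1.5 times and for a share of all genes, over a large number of genes, meant outside its 95% binomial interval. By these unequal limits small shifts of a share count as moved and counts such as 28 for 37 peaks at members (no flanks) do not. The number of members with a peak was 9 under every window, with peak centres and after merging, and 8 with the first 7673 peaks, where Sp5 had none either. In those 7673 peaks, 16 peaks were at members (4 at ligands, 9 at effectors, 3 at targets), 4 members had a distal peak, and the shares of all genes were 43.7% with a peak, 30.0% with one at a start site and 5.597% with a distal one. Merging peaks up to 1000 bp apart left 23 at members, 12 at effectors and 5 at targets. Without flanks the ligands had 5 peaks and the effectors 16, and with 50 kb the ligands had 11. The share of all genes with a peak was 45.03%, 50.4% and 69.2% with flanks of 0, 5 and 50 kb. The share with a start site peak was 46.2% within 5 kb on both sides and 45.05% with all annotated transcripts. With distal set beyond 5 kb, 4 members and 8.32% of genes had such a peak. Over whole peaks 14 member peaks held a heptamer, next to 10.4% of all whole peaks.

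No paired analysis was possible because peaks from every sample were combined before deposit, with no replicate named. Leaving out single replicates could not be done either. The list gives no depth, so whether Dkk1 has binding below the threshold cannot be read from it.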
